A study of Mus musculus with 8 samples.

Results

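Genes that carry chloride across membranes, or that help to do so, were followed in the enamel organ of the mouse first molar: the ClC family members Clcn2, Clcn3, Clcn4, Clcn5, Clcn6 and Clcn7, the ClC-7 partner Ostm1, the anoctamins Ano1 and Ano6, and the volume-regulated channel subunit Lrrc8a. They were taken from the count table by gene name, 10 of 54532 genes in all, and all 10 were among the 16440 genes with enough counts to be tested. Between postnatal day 5 (P5) and day 12 (P12), 3 of them rose, 3 fell and 4 did not pass the test, or 6 of 10 called against 57.2% of all tested genes (28.8% higher and 28.4% lower). Ano1 rose 1.75-fold and Ano6 fell 1.81-fold, so that per kilobase the higher of these anoctamins was Ano6 at P5 and Ano1 at P12. The ClC genes had fold changes no larger than 1.46 in either direction.

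Chloride channels and exchangers work in different membranes. ClC-2 and Ano1 pass chloride at the cell surface, the first when the membrane is hyperpolarized and the second when cytosolic calcium rises. ClC-3 to ClC-7 sit in endosomes and lysosomes, where they exchange chloride for protons and support acidification by the V-ATPase proton pump. Ano6 responds to calcium by moving phospholipids between the leaflets of the plasma membrane, and also conducts ions. LRRC8A is the subunit that every functional volume-regulated anion channel contains, together with one of its relatives LRRC8B to LRRC8E. In the enamel organ, secretory ameloblasts lay down the protein matrix, and maturation ameloblasts later remove it by proteolysis and endocytosis while they move ions and buffer the acid that growing crystals release.

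The 8 libraries came from untreated wild type C57BL/6 pups, 4 from P5, the secretory stage, and 4 from P12, the maturation stage. Each was made from polyA RNA of first molars of 5 pups pooled, after the pulp tissue had been taken out. Replicates are named here by the numbers in their labels, which are 1, 3, 4 and 5 at P5 and 1, 2, 3 and 4 at P12. No group carried a transgene or a deletion, and what was compared is age in whole tissue, so that fewer cells of a type and less RNA per cell cannot be told apart.

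Libraries held 16574548 to 22013456 counts. The 20 most abundant genes took 34.1% to 35.7% of the counts at P5 and 16.8% to 19.0% at P12. The 10 genes together took 0.0417% to 0.0452% at P5 and 0.0524% to 0.0542% at P12. Counts were scaled to a common library size by TMM, which sets scaling factors from genes other than the extremes, and are called normalized counts below. A floor of 3 counts corresponds to 2.20 to 3.95 normalized counts. Ameloblast markers moved in opposite directions by stage, as 4 of 4 secretory genes (Amelx, Ambn, Enam and Mmp20) fell and 5 of 5 maturation genes (Klk4, Amtn, Odam, Slc24a4 and Wdr72) rose. P5 replicate 5 had the lowest sum of the maturation markers, 12880 normalized counts against 36789 to 44228 in the other P5 libraries. For all counts of called markers given here, the background was 28.8% higher and 28.4% lower over all tested genes. Markers of other cells were present too. The summed osteoblast and odontoblast list lay at 1022670 to 1219870 at P5 and 866336 to 1079040 at P12, although the labels describe the cells as epithelial. Of its 6 genes 1 was higher, Ibsp (log2 fold change 1.77, edgeR adjusted p = 1.2e-04), and 2 were lower, Col1a2 and Dmp1. With total count scaling these 2 calls were lost (edgeR adjusted p = 0.91 and 0.86). The osteoclast sum was 1410 to 2402 at P5 and 4390 to 10882 at P12, with 6 of 6 tested genes higher. That count carries no weight, as Ocstamp, Dcstamp and Oscar were tested only through their P12 libraries, where they are high. Their P5 means were 4.17, 6.58 and 11.2 normalized counts. Calcr of that list was too low to be tested, with means of 11.1 at P5 and 4.48 at P12. Endothelial markers summed to 2281 to 2875 and then 4496 to 4827 with 4 of 4 genes higher, macrophage and leukocyte markers to 1459 to 2098 and then 2191 to 2917 with 4 of 5 higher, and Schwann cell markers to 500 to 732 and then 971 to 1392 with 3 of 4 higher. These 4 lists had higher sums at P12 in every library, whereas skeletal muscle markers overlapped between the ages (1 of 4 higher and 3 lower) and so did erythroid markers (0 of 3 higher and 1 lower). Epithelial markers summed to 90040 to 95878 at P5 and 259768 to 324806 at P12, with 3 of 4 genes higher and Cdh1 lower, a call lost with total count scaling (log2 fold change 0.06, edgeR adjusted p = 0.39). Oral mucosa markers went from 436 to 833 at P5 to 2467 to 20389 at P12, lowest there in replicate 4. The part of these cell types in the chloride channel results was not tested.

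Calls rest on the quasi-likelihood test of edgeR, with p-values adjusted by the method of Benjamini and Hochberg over all tested genes and a threshold of 0.05. The 3 genes called higher at P12 were Clcn5, Ano1 and Lrrc8a, and the 3 called lower were Clcn2, Clcn6 and Ano6, shares near the background of all genes and so no property of this set. For the same 6 genes the libraries of the 2 ages did not overlap, which held for 26.0% of all tested genes upward and 26.6% downward, 52.5% together. The median log2 fold change was 0.05 over the 10 genes and 0.01 over all genes. No member changed by 1 or more on the log2 scale.

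**Figure D1:**
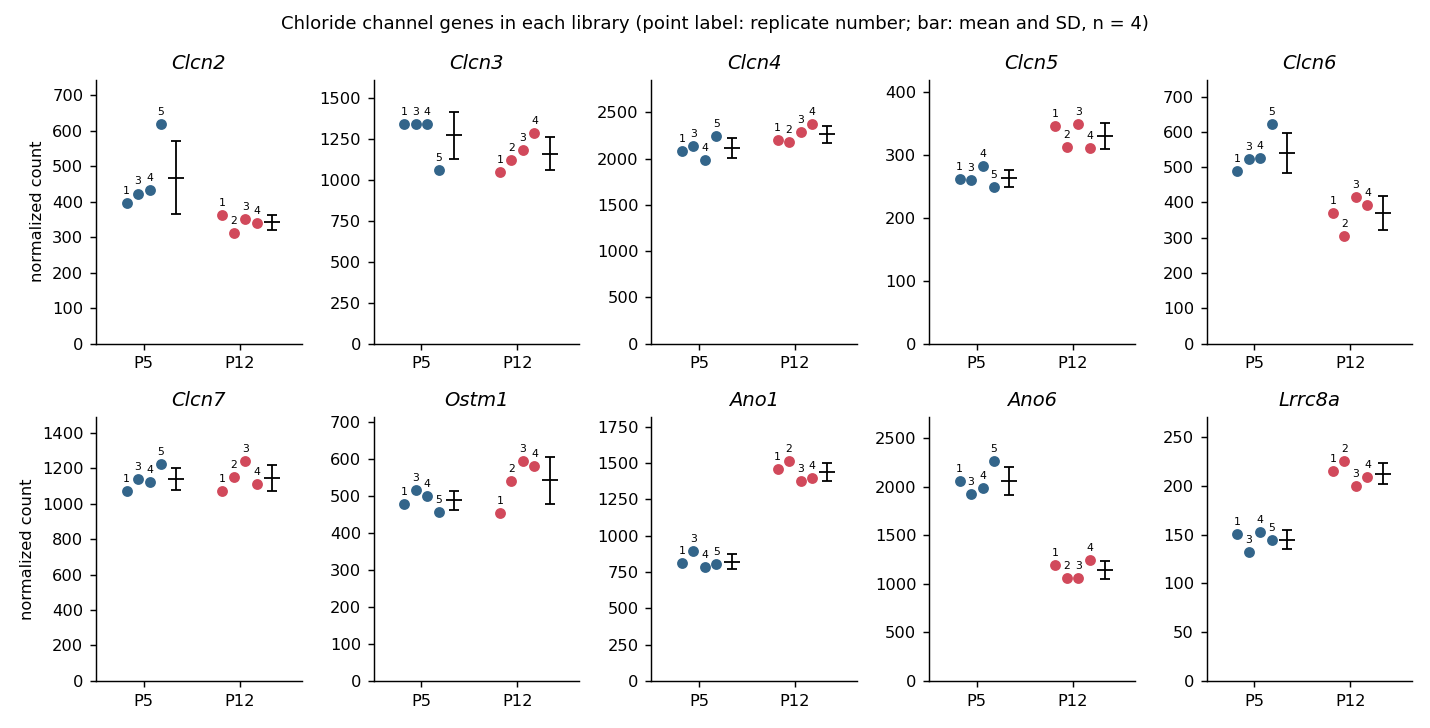
Normalized counts of the 10 genes in each library (vertical axes start at 0; points are libraries labelled by replicate number, blue P5 and red P12; bars are the mean and SD, n = 4). The P5 and P12 points of Ano1, Ano6, Lrrc8a, Clcn5, Clcn6 and Clcn2 do not overlap, while those of Clcn3, Clcn4, Clcn7 and Ostm1 do.

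Among the channels of the cell surface, Ano1 (ENSMUSG00000031075, GRCm38 chr7:144588549-144751974, minus strand), which encodes the calcium-activated chloride channel of secretory epithelia and smooth muscle, rose the most of the 10 genes. It had normalized counts of 812, 892, 782 and 802 in P5 replicates 1, 3, 4 and 5 and 1458, 1514, 1377 and 1396 in P12 replicates 1, 2, 3 and 4. Every P12 library stood above every P5 library, and the spread within an age was small beside the distance between the ages. From a P5 mean of 822 ± 48.4 to a P12 mean of 1436 ± 62.3 (SD, n = 4 each), the log2 fold change was 0.80 (SE 0.06, edgeR adjusted p = 1.2e-06). The exact two-sided permutation test of log2 values gave p = 0.0286, the smallest value that 4 libraries against 4 allow. With any library left out the log2 fold change stayed between 0.78 and 0.84. Smooth muscle markers, of cells that also use Ano1, summed to 427 to 680 at P5 and 759 to 937 at P12. Of these 4 genes 2 were higher, Acta2 and Cnn1, where 28.8% of all tested genes were higher. Cnn1 was tested only through its P12 libraries, where it is high. The part of these markers in the rise of Ano1 was not tested.

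Ano6 (ENSMUSG00000064210, GRCm38 chr15:95790843-95974751, plus strand), the scramblase, fell the most. Libraries of P5 held 2052, 1926, 1981 and 2262 normalized counts and those of P12 1189, 1054, 1062 and 1240. The lowest P5 library was thus well above the highest P12 library. Means of 2055 ± 147 and 1136 ± 92.8 (SD, n = 4 each) gave a log2 fold change of -0.86 (SE 0.08, edgeR adjusted p = 2.8e-06; exact permutation p = 0.0286). Leaving out single libraries moved it between -0.90 and -0.81.

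Because both anoctamins were counted in the same libraries, their ratio does not depend on how libraries are scaled. The log2 ratio of Ano1 to Ano6 counts was -1.34, -1.11, -1.34 and -1.49 in the P5 libraries and 0.29, 0.52, 0.37 and 0.17 in the P12 libraries. Ano6 had more counts than Ano1 in each of the 4 P5 libraries, and Ano1 more than Ano6 in each of the 4 P12 libraries. Ano1 went from 0.401 to 1.27 counts per Ano6 count, a log2 difference of 1.66 (exact two-sided permutation p = 0.0286, adjusted p = 0.0381 over the 4 ratios computed). Per kilobase of exonic sequence that no other gene shares, the order was the same: 132 ± 7.75 for Ano1 against 172 ± 12.3 for Ano6 at P5, and 230 ± 9.98 against 95.2 ± 7.78 at P12 (normalized counts per kilobase, SD, n = 4).

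The other anoctamins were a list of 8 genes, of which 5 passed the filter on low counts. Of these 3 rose (Ano2, Ano4 and Ano8) and 2 fell (Ano9 and Ano10), where 28.8% of all tested genes were higher and 28.4% lower. Ano2 and Ano4 passed that filter through their P12 libraries, where they are high, so the count over the tested members carries no weight. Ano2, a calcium-activated chloride channel best known from olfactory neurons, had 0, 2, 2 and 3 raw counts at P5 and 68, 90, 68 and 42 at P12. It was at or under the floor of 3 counts in each P5 library and well above it in each P12 library. Its summed counts, scaled for depth, were 27.9 times as high at P12 (95% exact interval 13.4 to 70.2, counting error only; edgeR adjusted p = 4.5e-06). Ano4 had 4, 14, 3 and 8 raw counts at P5 and 140, 154, 118 and 41 at P12, lowest at P12 in replicate 4, and its scaled sum was 11.4 times as high (interval 7.83 to 17.2; edgeR adjusted p = 5.3e-05). For both genes the P12 levels of 10.7 ± 2.76 and 13.2 ± 5.26 normalized counts per unshared kilobase were far under the 230 of Ano1.

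Ano8, which acts at contacts between the endoplasmic reticulum and the plasma membrane, rose from 571 to 797 normalized counts at P5 up to 1158 to 1436 at P12 (log2 fold change 0.94, SE 0.11, edgeR adjusted p = 1.9e-05). Ano9 fell from 426, 388, 411 and 973 to 231, 236, 240 and 198 (log2 fold change -1.28, SE 0.27, edgeR adjusted p = 0.0017), and P5 replicate 5 stood apart from the other 3. Its log2 fold change was -0.86 when that library was left out (edgeR adjusted p = 4.4e-05). Ano10 gave -0.22 (SE 0.08, edgeR adjusted p = 0.027), with 747 to 878 normalized counts at P5 and 630 to 744 at P12. Its call was lost without P5 replicate 1 (adjusted p = 0.073), P5 replicate 4 (0.060), P12 replicate 3 (0.075) or P12 replicate 4 (0.053), each by edgeR, and its direction turned with total count scaling (0.15). Ano3, Ano5 and Ano7 were too low to be tested.

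**Figure D2:**
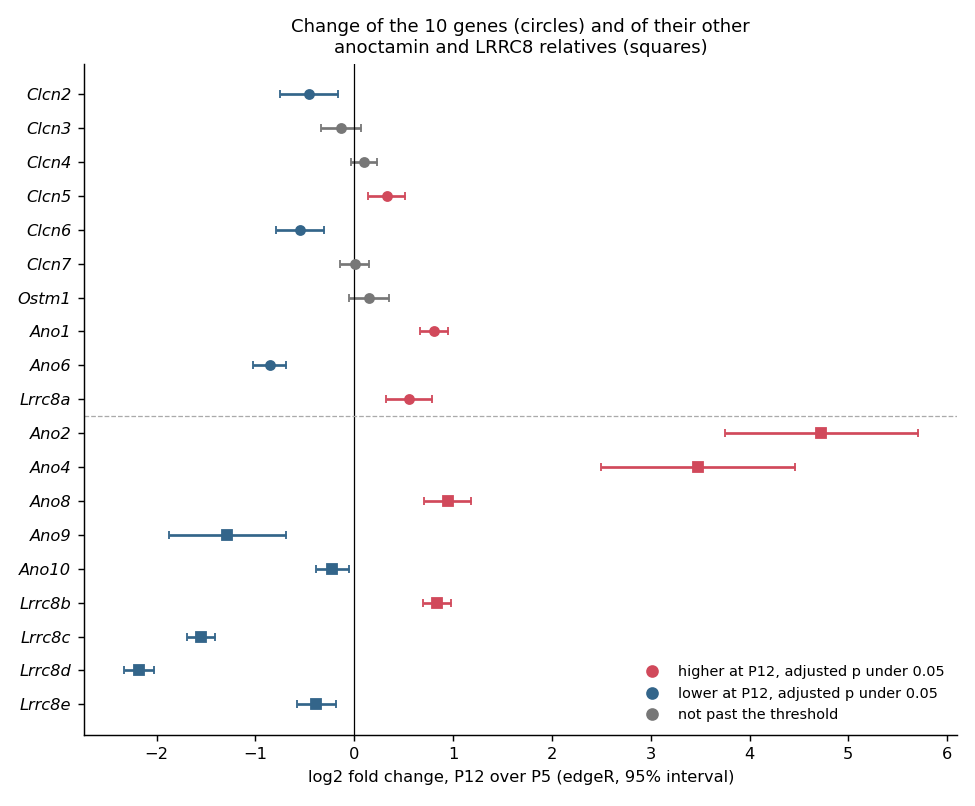
Log2 fold change from P5 to P12 with its 95% interval from edgeR for the 10 genes (circles) and for their tested anoctamin and LRRC8 relatives (squares; red higher at P12, blue lower, grey not past an adjusted p of 0.05). The 10 genes lie between -0.86 (Ano6) and 0.80 (Ano1), while relatives reach from -2.18 (Lrrc8d) to 4.72 (Ano2, whose P5 libraries had 0 to 3 counts).

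Lrrc8a (ENSMUSG00000007476, GRCm38 chr2:30237715-30263790, plus strand) rose. Its 4 P5 libraries held 150, 132, 153 and 144 normalized counts, and its 4 P12 libraries 216, 225, 200 and 209. Each P12 library was above the P5 range. The means of 145 ± 9.38 and 212 ± 10.6 (SD, n = 4) differed by a log2 fold change of 0.55 (SE 0.10, edgeR adjusted p = 8.5e-04; exact permutation p = 0.0286). The count covers only a part of the gene. In the GENCODE M21 annotation, 66.2% of the exonic bases of Lrrc8a also belong to Gm28035, a protein-coding gene on the same strand that extends past the end of Lrrc8a, and Gm28035 had 0 counts in all 8 libraries. Across the table, 1200 of 1228 genes (97.7%) with no unshared exonic base had 0 counts in all libraries, against 20162 of 42753 genes (47.2%) with all bases unshared. Reads in shared stretches were thus mostly left out, and 1364 of the 4308 bases of Lrrc8a were unshared. Over its full length Lrrc8a had 33.6 normalized counts per kilobase at P5 and 49.3 at P12, and over the unshared bases 106 ± 6.88 and 156 ± 7.79 (SD, n = 4).

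The partners of Lrrc8a did not move in 1 direction, as 1 of 4 rose and 3 fell, with a median log2 fold change of -0.97, where 28.8% of all tested genes were higher and 28.4% lower. These genes encode the subunits that, joined with LRRC8A, set what the volume-regulated channel conducts. Lrrc8b rose from 1494, 1287, 1420 and 1284 normalized counts at P5 to 2413, 2443, 2507 and 2458 at P12 (log2 fold change 0.84, SE 0.06, edgeR adjusted p = 8.5e-07). Lrrc8c, by contrast, fell from 1517, 1595, 1555 and 1572 to 510, 499, 573 and 554 (log2 fold change -1.55, SE 0.06, edgeR adjusted p = 9.0e-09). The largest change among the subunits was that of Lrrc8d, with 1760, 1769, 1950 and 1867 at P5 and 380, 395, 443 and 404 at P12 (log2 fold change -2.18, SE 0.07, edgeR adjusted p = 1.5e-09). LRRC8D-containing channels are known to pass organic osmolytes and some drugs as well as chloride. Lrrc8e fell less, from 825 to 1047 at P5 to 660 to 790 at P12 (log2 fold change -0.39, SE 0.09, edgeR adjusted p = 0.0034), and with total count scaling its log2 fold change was -0.01 (edgeR adjusted p = 0.93).

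Shares of the partner transcripts are given without a test. Of the counts per kilobase of Lrrc8b to Lrrc8e, Lrrc8b held 26.1% ± 2.04 at P5 and 57.0% ± 1.60 at P12 (SD, n = 4). Lrrc8c went from 26.1% ± 0.839 to 10.9% ± 0.519 and Lrrc8d from 18.7% ± 1.03 to 5.03% ± 0.220. Lrrc8e held 29.1% ± 2.40 and 27.1% ± 1.80, within the spread of the libraries. Shares sum to a whole, so a higher share of Lrrc8b lowers the others. Relative to the summed counts of its 4 partners, Lrrc8a went from a log2 ratio of -5.24, -5.40, -5.22 and -5.32 at P5 to -4.23, -4.14, -4.42 and -4.28 at P12. The ages did not overlap, and the difference was 1.02 (exact two-sided permutation p = 0.0286, adjusted p = 0.0381 over 4 ratios). Only this difference can be read, as Lrrc8a was counted over 1364 unshared bases and its partners over 4134 (Lrrc8e) to 12355 (Lrrc8d). Per unshared kilobase Lrrc8a had 106 normalized counts at P5, against 149 (Lrrc8d) to 227 (Lrrc8e) for its partners. At P12 it had 156, against 32.8 (Lrrc8d) to 365 (Lrrc8b).

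**Figure D3:**
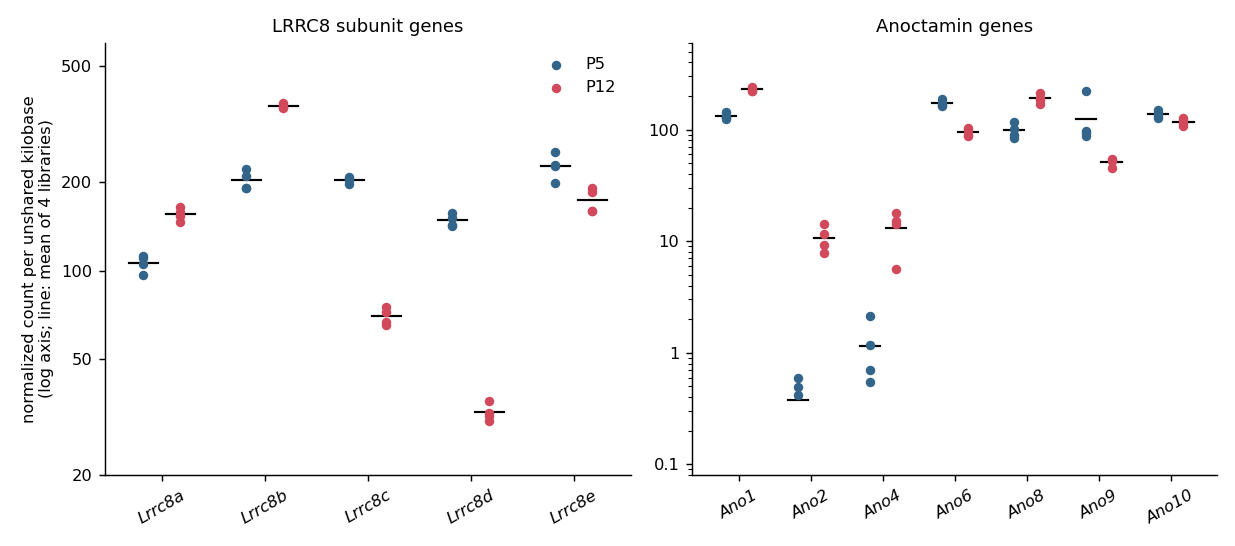
Normalized counts per kilobase of unshared exonic sequence of the LRRC8 genes (left) and the tested anoctamins (right), on log axes (points are libraries, blue P5 and red P12; lines are means of 4). Lrrc8b and Lrrc8a rise while Lrrc8c and Lrrc8d fall, and Ano1 and Ano6 change places; the P5 library in which Ano2 had 0 counts has no point.

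Clcn2 (ENSMUSG00000022843, GRCm38 chr16:20702964-20717746, minus strand), the ClC channel of the plasma membrane, fell modestly. It had 395, 423, 432 and 619 normalized counts at P5 and 361, 312, 351 and 339 at P12. The ages did not overlap, but P5 replicate 5 was far above the other P5 libraries. Means of 467 ± 103 and 341 ± 21.2 (SD, n = 4) gave a log2 difference of -0.46 (SE 0.13, edgeR adjusted p = 0.012; exact permutation p = 0.0286). Without P5 replicate 5 the log2 fold change was -0.29 (edgeR adjusted p = 0.013). Maturation markers were lowest in that same library, as given above, and their part was not tested. With total count scaling the fall of Clcn2 was not past the threshold (log2 fold change -0.08, edgeR adjusted p = 0.61).

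Clcn1, the ClC channel of skeletal muscle, was too low to be tested, with means of 4.22 ± 1.40 normalized counts at P5 and 5.32 ± 3.41 at P12 (SD, n = 4).

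The genes of intracellular ClC exchangers showed small changes in both directions. Promoter sequence is shown for those members whose window, 250 bases before to 50 after a RefSeq start, holds the letters CACGTG, because TFEB and related factors that drive lysosomal genes bind the longer TCACGTGA form. The letters CACGTG read the same on both strands and are part of TCACGTGA. All 10 genes matched the RefSeq table, with 14 windows on GRCm38.p6. CACGTG occurred in the windows of 4 of the 10 genes (Clcn4, Clcn6, Clcn7 and Lrrc8a) and in 7.15% of all 32851 windows, or 8.09% of all genes. TCACGTGA occurred in those of Clcn6 and Clcn7 and in 0.974% of all windows, or 1.12% of all genes. The TCACGTGA of Clcn7 lies after the start, outside the stretch shown. Each line gives a stretch on the strand of the gene with CACGTG in capitals: Clcn4 at chr7:7299678-7299737 (minus), Clcn6 at chr4:148038829-148038888 (minus), Clcn7 at chr17:25133349-25133390 (plus) and Lrrc8a at chr2:30237546-30237605 (plus).
Clcn4: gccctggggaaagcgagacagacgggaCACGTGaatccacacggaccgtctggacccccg
Clcn6: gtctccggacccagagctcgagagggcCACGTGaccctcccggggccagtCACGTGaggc
Clcn7: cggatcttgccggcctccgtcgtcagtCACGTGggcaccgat
Lrrc8a: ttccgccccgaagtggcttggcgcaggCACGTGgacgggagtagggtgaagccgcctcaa

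The 4 genes that held these letters did not share a direction: Clcn6 fell, Lrrc8a rose, and Clcn4 and Clcn7 did not pass the test. A match of letters is a description of the window, not of binding.

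Of the endosomal exchangers, Clcn4 (ENSMUSG00000000605, GRCm38 chr7:7282309-7300851, minus strand) had the highest level per kilobase of the 10 genes and did not pass the test. Libraries held 2088, 2139, 1985 and 2248 normalized counts at P5 and 2200, 2185, 2292 and 2378 at P12, and the 2 ranges overlapped. The log2 fold change was 0.10 (SE 0.06, 95% interval -0.03 to 0.23, edgeR adjusted p = 0.19). An antisense gene, Gm45631, shares 11.5% of its exonic bases and had 2 to 13 counts per library.

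Clcn3 (ENSMUSG00000004319, GRCm38 chr8:60910389-60983300, minus strand), a close relative of Clcn4 whose protein can pair with ClC-4, had 1338, 1342, 1341 and 1058 at P5 and 1048, 1122, 1180 and 1284 at P12. P5 replicate 5 fell among the P12 libraries while the other 3 P5 libraries lay above all of them. The log2 fold change was -0.13 (SE 0.09, 95% interval -0.33 to 0.07, edgeR adjusted p = 0.24). Without P5 replicate 5 it was -0.22 and passed the threshold (edgeR adjusted p = 0.031). With total count scaling it turned to 0.24 (edgeR adjusted p = 0.022).

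Clcn5 (ENSMUSG00000004317, GRCm38 chrX:7153810-7319358, minus strand), the endosomal exchanger that the kidney proximal tubule needs to take up filtered protein and that is lost in Dent disease, rose. It held 262, 260, 282 and 250 normalized counts at P5 and 347, 313, 350 and 312 at P12. Every P12 library was above the P5 range. The means were 264 ± 13.5 and 331 ± 20.8 (SD, n = 4), a log2 fold change of 0.33 (SE 0.08, edgeR adjusted p = 0.0062; exact permutation p = 0.0286). Relative to Clcn3 the log2 ratio of counts went from -2.35, -2.36, -2.24 and -2.08 at P5 to -1.59, -1.84, -1.75 and -2.04 at P12. The highest P5 and the lowest P12 library came close but did not overlap, and the difference was 0.45 (exact two-sided permutation p = 0.0286, adjusted p = 0.0381 over 4 ratios). Clcn5 still had the lowest level per kilobase of the 10 genes, 23.0 ± 1.18 at P5 and 28.9 ± 1.81 at P12 (SD, n = 4).

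Clcn6 (ENSMUSG00000029016, GRCm38 chr4:148004259-148038821, minus strand), an exchanger of late endosomes that is best known from neurons, fell the most of the ClC genes. Its libraries held 490, 522, 527 and 623 normalized counts at P5 and 371, 304, 415 and 393 at P12, with no overlap. P5 replicate 5 was again the highest. The means of 541 ± 57.6 and 371 ± 48.1 (SD, n = 4) gave a log2 fold change of -0.55 (SE 0.11, edgeR adjusted p = 0.0012; exact permutation p = 0.0286), and -0.48 without P5 replicate 5 (edgeR adjusted p = 0.0039). With total count scaling the call was lost (log2 fold change -0.18, edgeR adjusted p = 0.17).

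Neither gene of the lysosomal pair passed the test. Clcn7 (ENSMUSG00000036636, GRCm38 chr17:25133391-25162104, plus strand) encodes the exchanger of lysosomes and of the osteoclast ruffled border, and Ostm1 (ENSMUSG00000038280, GRCm38 chr10:42583822-42702459, plus strand) the subunit without which ClC-7 is unstable. Clcn7 had 1073, 1139, 1120 and 1222 normalized counts at P5 and 1069, 1150, 1240 and 1112 at P12. The ranges nearly coincided, with means of 1139 ± 62.2 and 1143 ± 72.7 (SD, n = 4). Its log2 fold change was 0.00 with a 95% interval of -0.14 to 0.15 (edgeR adjusted p = 0.96). Ostm1 had 478, 515, 501 and 458 at P5 and 455, 540, 595 and 581 at P12. P12 replicate 1 was the lowest of all 8 libraries and the other 3 P12 libraries were above the P5 range. The log2 fold change of Ostm1 was 0.15 (SE 0.09, 95% interval -0.05 to 0.35, edgeR adjusted p = 0.18), and 0.22 without P12 replicate 1, then past the threshold (edgeR adjusted p = 0.030).

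Counted against each other, Ostm1 had a log2 ratio to Clcn7 of -1.16, -1.14, -1.16 and -1.41 at P5 and -1.23, -1.09, -1.06 and -0.94 at P12. Both ages overlapped, and the difference of 0.14 was within the spread of the libraries (exact two-sided permutation p = 0.171, adjusted p = 0.171 over 4 ratios). Osteoclast markers, which mark cells rich in this pair, moved over the same days by a log2 ratio of summed levels of 2.13, as given by library ranges above, and their part in the Clcn7 and Ostm1 counts was not tested.

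**Figure D4:**
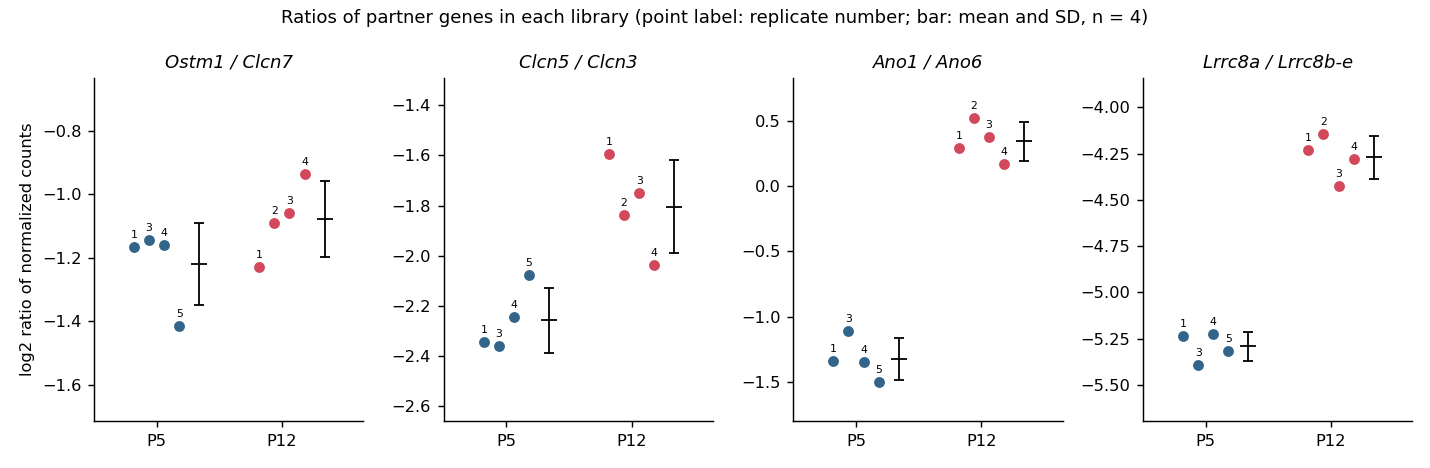
Log2 ratios of counts of Ostm1 to Clcn7, Clcn5 to Clcn3, Ano1 to Ano6, and Lrrc8a to the sum of Lrrc8b to Lrrc8e in each library (each panel has its own vertical axis; points labelled by replicate number, blue P5 and red P12; bars are the mean and SD, n = 4). The ages overlap for Ostm1 to Clcn7 and are apart for the other 3, with the widest gap for Ano1 to Ano6 (difference 1.66). Counts are not scaled for exonic length, so the level of a ratio does not compare amounts of transcript.

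Levels were compared between genes per kilobase of unshared exonic sequence. That length takes in the exons of all annotated transcripts of a gene. Which of those transcripts were expressed was not tested, so the order rests on annotated lengths. At P5 the order from high to low was Clcn4 with 279 ± 14.4 normalized counts per kilobase, Clcn7 with 215 ± 11.8, Ano6 with 172 ± 12.3, Ano1 with 132 ± 7.75, Lrrc8a with 106 ± 6.88, Clcn6 with 91.1 ± 9.71, Clcn2 with 79.8 ± 17.5, Clcn3 with 74.4 ± 8.25, Ostm1 with 71.8 ± 3.69 and Clcn5 with 23.0 ± 1.18 (SD, n = 4). Each neighbour pair from Lrrc8a down to Ostm1 overlapped in its libraries, and the others did not. By P12 the order was Clcn4 at 298 ± 11.8, Ano1 at 230 ± 9.98, Clcn7 at 216 ± 13.7, Lrrc8a at 156 ± 7.79, Ano6 at 95.2 ± 7.78, Ostm1 at 79.8 ± 9.25, Clcn3 at 67.9 ± 5.84, Clcn6 at 62.5 ± 8.10, Clcn2 at 58.2 ± 3.63 and Clcn5 at 28.9 ± 1.81. There Ano1 and Clcn7 overlapped, as did each neighbour pair from Ostm1 to Clcn2. Raw counts would give another order, since the 17071 exonic bases of Clcn3 are the most of the 10 genes.

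The choice of scaling moved all 10 genes. With scaling to total counts, the median of all genes moved from 0.01 to 0.38 on the log2 scale, and 54.0% of genes were then higher and 14.2% lower. Under it 7 of the 10 genes were higher and 1, Ano6, was lower (log2 fold change -0.48, edgeR adjusted p = 1.4e-04). Clcn4 (0.47), Clcn7 (0.38) and Ostm1 (0.52) then passed the threshold, at 0.09, 0.00 and 0.14 from the shifted median. Relative to that median the 10 genes kept their order, from -0.86 for Ano6 to 0.80 for Ano1.

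**Figure D5:**
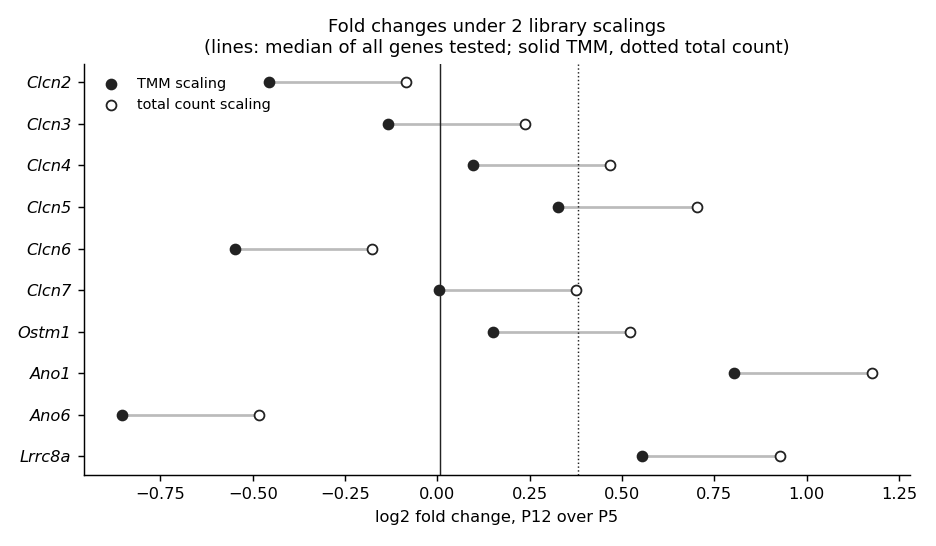
Log2 fold change of each of the 10 genes with TMM scaling (filled) and total count scaling (open); vertical lines mark the median of all tested genes under each (solid TMM 0.01, dotted total count 0.38). Every gene shifts to the right by about the shift of that median, which turns the sign of Clcn3.

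Genes that work with these channels were looked at as lists. Of the 8 accessory subunits and regulators, 7 were tested, 3 rose and 2 fell, against 57.2% called over all tested genes, with a median log2 fold change of -0.05. The count of those that fell includes Mlc1, which would not have passed the filter on low counts without its P5 libraries, where it is high. Stk39, the kinase SPAK that regulates chloride cotransport in the WNK pathway, rose from 205 to 288 normalized counts at P5 up to 934 to 1108 at P12 (log2 fold change 2.08, SE 0.10, edgeR adjusted p = 3.6e-08). Tmem9 and Tmem9b encode partners of the endosomal ClC exchangers, and they moved apart. Tmem9 fell (log2 fold change -0.35, SE 0.07, edgeR adjusted p = 8.3e-04) and Tmem9b rose (0.51, SE 0.09, edgeR adjusted p = 3.6e-04), although Tmem9 had 0.02 with total count scaling. Mlc1, a membrane protein of astrocytes that acts together with ClC-2, fell from 48.9, 72.7, 91.0 and 88.9 to 5.13, 6.75, 9.27 and 47.2 (log2 fold change -2.20, SE 0.57, edgeR adjusted p = 0.0065). P12 replicate 4 stood apart, and without it the log2 fold change of Mlc1 was -3.42 (edgeR adjusted p = 2.6e-06).

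Of 20 genes of other chloride channel families in the table, 16 were tested, of which 9 rose and 3 fell, against 28.8% higher and 28.4% lower over all tested genes. The count includes Best1 and Best2, which would not have passed the filter on low counts without their P12 libraries, where they are high. Cftr, the cyclic AMP-regulated channel mutated in cystic fibrosis, had 679, 606, 738 and 600 normalized counts at P5 and 2296, 3069, 3452 and 4949 at P12 (log2 fold change 2.39, SE 0.20, edgeR adjusted p = 1.6e-06). Each P12 library was above the P5 range, with replicate 4 the highest. Best1, a calcium-activated anion channel, rose from 4.0 to 24.4 up to 62.4 to 166 (log2 fold change 2.93, SE 0.44, edgeR adjusted p = 1.6e-04). In P5 replicate 4 Best1 was at the floor, with 3 raw counts. Its relative Best2 had 0, 3, 1 and 0 raw counts at P5, at or under the floor, and 62, 60, 28 and 20 at P12. Clca2, a regulator of calcium-activated chloride currents rather than a channel itself, rose from 111 to 171 up to 663 to 793 (log2 fold change 2.44, SE 0.12, edgeR adjusted p = 4.1e-08).

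The 18 genes of endolysosomal ion transport and acidification were all tested, 10 rose and 5 fell, against 28.8% higher and 28.4% lower over all tested genes, and their median log2 fold change was 0.35 against 0.01. Of the 5 exchangers of the same compartments, Clcn5 rose, Clcn6 fell, and Clcn3, Clcn4 and Clcn7 did not pass the test, nor did Ostm1. Atp6v1a, the catalytic subunit of the V-ATPase, rose from 3024 to 4740 normalized counts at P5 up to 8277 to 16201 at P12 (log2 fold change 1.52, SE 0.19, edgeR adjusted p = 5.0e-05). Its partner Atp6v1b2 rose likewise (1.31, SE 0.19, edgeR adjusted p = 1.3e-04). Atp6v1b1, the form of that partner found in kidney and inner ear, fell from 30, 40, 34 and 113 raw counts to 1, 3, 2 and 0, at or under the floor (edgeR adjusted p = 2.0e-05). It passed the filter on low counts only through its P5 libraries, where it is high, and is among the 5 genes that fell. Atp6v0d2, a subunit abundant in osteoclasts, rose from 20.6 to 43.5 up to 86.3 to 151 (log2 fold change 2.05, SE 0.27, edgeR adjusted p = 6.0e-05). Whether the pump genes and the exchanger genes changed differently was not tested.

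Among 10 phospholipid scramblases and flippases, the genes that share the lipid-moving role of Ano6, 9 were tested, 4 rose and 2 fell (median log2 fold change 0.23), which is close to the 57.2% called over all tested genes. Atp11a, a flippase that returns phosphatidylserine to the inner leaflet, fell from 8338 to 10143 normalized counts at P5 to 3535 to 4064 at P12 (log2 fold change -1.22, SE 0.08, edgeR adjusted p = 2.9e-07). Plscr1 (log2 fold change 1.15, SE 0.26, edgeR adjusted p = 0.0030) and Plscr4 (1.15, SE 0.27, edgeR adjusted p = 0.0033) rose from low levels, and Xkr4, of the family of apoptotic scramblases, fell (-0.83, SE 0.18, edgeR adjusted p = 0.0018).

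The genes with the most similar profile were sought for the member that rose the most and the one that fell the most, by root mean square distance of centred log2 values over 8 libraries among 11344 genes. For Ano1 they were Swap70 (distance 0.04), Tln2 (0.05) and Tcaf2 (0.06), which were higher at P12 by log2 fold changes of 0.82, 0.78 and 0.86. For Ano6 they were Srek1 (0.04), Zfp521 (0.05) and Dock1 (0.05), lower by -0.88, -0.79 and -0.87. With 2 ages, such a distance mostly reflects the size of the change.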

How the data were processed

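PolyA RNA of first molar enamel organs was sequenced from 8 pools of 5 pups. The authors deposited raw counts per gene for all libraries in a single table. The submitters' processing notes name CASAVA and mm39 without a role, but the table's coordinates are those of GRCm38 (53548 of 54495 gene IDs found in GENCODE M21 had identical coordinates, as had all 10 members). The aligner, counter and strand setting are not given in the sources used here. Columns were matched to the labels by name, with 0 unmapped.

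Genes passing filterByExpr were tested with edgeR 4.0.16 (R 4.3.3) by glmQLFit and glmQLFTest on TMM-scaled counts, P12 against P5, with Benjamini-Hochberg adjustment over 16440 genes. The fit was also run on simulated data with 200 changed genes, each changed by more than any member here. That run does not cover changes as small as those of the members, nor data in which as many genes change as here. SE is the log2 fold change over the square root of F. The study used DESeq2, which was an alternative here (1.42.0), as was limma-voom (3.58.1). Ratios used log2 normalized counts plus a pseudocount of 1 and exact permutation tests (scipy 1.17.1). Other alternatives were DESeq2 size factors, total count scaling, other filters and thresholds, and each library left out. Levels per unshared kilobase, and the fit without P5 replicate 5 and P12 replicate 4, were added after seeing the data.

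The labels do not say whether pools came from separate litters, so p-values measure the spread between these pools. Members, lists and named genes were chosen with earlier results of these data known. The genes named were all 10 members, tested LRRC8 and anoctamin genes, up to 4 called genes with the largest change per other list, and the 3 nearest profiles of the largest rise and fall. The exact intervals of Ano2 and Ano4 and the floors cover counting error only. Intervals from edgeR also cover the spread between libraries.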

Additional observations from a re-analysis of the deposited data

Results flagged for a closer look

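Single libraries far from the other 3 of their age, by Dixon's test, occurred in 8 of 78 groups of 4 (35 named genes and 4 ratios at each age), where chance gives about 1 in 20, or 3.9. P5 replicate 5 accounted for 5 of them. It had 619 normalized counts of Clcn2 (the others 395 to 432), 1058 of Clcn3 (1338 to 1342), 973 of Ano9 (388 to 426) and 120 of Atp6v1b1 (38.6 to 44.8), and a log2 ratio of Ostm1 to Clcn7 of -1.41 (-1.16 to -1.14). P12 replicate 4 had 47.2 of Mlc1 (5.13 to 9.27) and 180 of Xkr4 (109 to 120). P5 replicate 4 had 43.5 of Atp6v0d2 (20.6 to 24.3). The sum of maturation markers was lowest in P5 replicate 5 among P5 libraries, and that of oral mucosa and osteoclast markers lowest in P12 replicate 4 among P12 libraries. Their part in these values was not tested.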

How the results depend on the processing

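Of 180 fits of single members (18 alternatives each), 169 kept their side of the threshold, 4 lost a call and 6 gained one. Among the 169, Clcn7 stayed near no change but turned its sign without some single libraries (log2 fold changes of -0.03 to 0.03). The last 1, Clcn3 with total count scaling (0.24, edgeR adjusted p = 0.022), turned its sign and passed the threshold. That scaling gave 8885 genes higher and 2330 lower, 7 and 1 among the 10 genes, and 10 lower among the 71 genes of the 7 lists, against 4735, 4676, 3, 3 and 17. Requiring an absolute log2 fold change of 1 left 1864 higher and 1677 lower genes, 0 and 0 of the 10, and 16 and 9 list genes. Leaving out single libraries gave 4309 to 4938 genes higher and 4364 to 5092 lower, 3 to 4 of the 10 higher and 3 to 4 lower, and 28 to 31 list genes higher and 15 to 18 lower; the 4 ratio differences ranged over 0.08 to 0.19 (Ostm1 to Clcn7), 0.38 to 0.53 (Clcn5 to Clcn3), 1.60 to 1.73 (Ano1 to Ano6) and 0.98 to 1.07 (Lrrc8a to Lrrc8b-e). Without P5 replicate 5 and P12 replicate 4 together, Clcn3 was lower (-0.27, edgeR adjusted p = 0.0020). Replicate numbers shared by both ages (1, 3 and 4) gave correlations of deviations of 0.04, -0.01 and -0.01, and not every library correlated best with its own number, so they were not taken as pairs. With the replicate block over those 6 libraries, 4006 genes were higher and 3938 lower (4076 and 4041 in the same libraries without it), 2 of the 10 were higher and 2 lower, Clcn2 (-0.25, edgeR adjusted p = 0.080) and Clcn5 (0.33, edgeR adjusted p = 0.0501) lost their calls, and the ratio differences were 0.08, 0.52, 1.54 and 0.97. The cause was not tested. Among list genes, calls of Atp6v0a2, Atp6v0d1 and Atp6v1h were lost without single libraries (adjusted p up to 0.112, 0.057 and 0.063 by edgeR), and calls of Hepacam (0.032), Clic6 (0.030), Atp6v0a4 (3.5e-04) and Atp6ap1 (0.047) were gained. Depth limits the genes under the floor, such as Ano2 and Best2 at P5 and Atp6v1b1 at P12.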
